A study of Sus scrofa with 6 samples.

Results

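UNC93B1 encodes a membrane protein with many transmembrane segments that binds Toll-like receptors (TLR) in the endoplasmic reticulum and carries them to endosomes, where they meet nucleic acids taken up from viruses, bacteria, or dying cells. Without it, the endosomal receptors TLR3, TLR7, and TLR9 do not reach the compartment in which they signal. Plasmacytoid dendritic cells (DC) are known for sensing viral nucleic acids through TLR7 and TLR9 and for releasing type I interferon, and the conventional DC subset marked by XCR1 is known for TLR3. Here the level of UNC93B1 mRNA was followed across 3 cell populations sorted from pig blood as DC candidates.

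The gene was found by its symbol in the gene name column of the scanner files, which gives it 1 probe of the 41901 gene probes used. It is 1 of 23 genes (27 probes) that carry a symbol in those files, and 1 of 15 such probes that the array design marks as positive. The 6 arrays were hybridized with RNA of cells sorted from peripheral blood of healthy control pigs of both sexes, with 2 arrays per subset. Plasmacytoid DC were sorted as CD4+ cells of intermediate CD172 that lacked CD3 and CD14. The DC XCR1- and DC XCR1+ were large MHC class II+ cells lacking surface immunoglobulin, CD4, and CD14, and CADM1 separated them. DC XCR1+ were CADM1+ cells with low CD172. For DC XCR1-, the protocol in the labels names CADM1- cells with high or intermediate CD172, and the study states that the cells with intermediate CD172 were left out after a PCR check that preceded its array analyses. The XCR1 names of these subsets thus rest on CADM1 staining. No animal was treated, and RNA of distinct animals was mixed where too little was obtained, so whether an array stands for 1 animal is not known and any p-value measures only the spread between these arrays. UNC93B1 was chosen by its measured pattern in earlier results of these same arrays, so its levels and its differences between subsets are given as a description with no test.

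The probe was a 60-mer printed as 5 spots on each array, and it is shown because every UNC93B1 value below rests on this stretch of the transcript alone. The files do not place it on a chromosome. Its GC content was 55.0%, against a median of 41.7% over the 41910 gene probes with a sequence, which include those left out because all their spots were flagged, and 93.4% of those probes had a lower GC content. Capitals mark positions 25 to 39, a run of 15 bases that an unnamed probe of the catalogue design, A_72_P062186, carries on the opposite strand at its positions 46 to 60.
UNC93B1: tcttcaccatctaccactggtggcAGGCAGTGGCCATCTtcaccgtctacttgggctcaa
A_72_P062186: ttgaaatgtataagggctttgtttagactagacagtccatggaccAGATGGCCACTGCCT

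A search of all gene probes for any run of 14 bases of the UNC93B1 probe found 2 others. One was A_72_P062186, whose mean level differed little between subsets, at 0.13 ± 0.105 in plasmacytoid DC, -0.07 ± 0.00815 in DC XCR1-, and -0.05 ± 0.277 in DC XCR1+ (SD, n = 2 each). The other, SS_S1A_ENSG110057, had the same 60 bases at every position and was printed once on each array under another name. This copy gives a further reading of the same sequence on the same RNA. The identifier within the name of the UNC93B1 probe matched the symbol UNC93B1 in the table of pig genes used here, and in all 16 of the 27 symbol-bearing probes matched, with 0 mismatches and the remaining identifiers not in that table. In the RefSeq gene table of the pig assembly Sscrofa11.1, ALDH3B1 precedes UNC93B1 and NDUFS8 stands before that, while a long noncoding RNA gene follows it.

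UNC93B1 was brightest in plasmacytoid DC, intermediate in DC XCR1-, and dimmest in DC XCR1+. A level is log2 of the background-corrected spot signal minus the 75th percentile of its array, so that 0 is the brightness at that percentile of the gene spots. In plasmacytoid DC, the level was 3.13 on the first array and 3.35 on the second. In DC XCR1-, it was 2.32 and 1.92. In DC XCR1+, it was 1.13 and 1.10. Both arrays of each subset lay above both arrays of the next, with no overlap, and all 6 levels lay above the 75th percentile of their array. The subset means were 3.24 ± 0.157 in plasmacytoid DC, 2.12 ± 0.283 in DC XCR1-, and 1.12 ± 0.0185 in DC XCR1+ (SD, n = 2 each). The mean of DC XCR1- stood 47.0% of the way from DC XCR1+ to plasmacytoid DC on the log2 scale. In bulk RNA of sorted cells, fewer cells that express the gene and less transcript per cell cannot be told apart.

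**Figure D1:**
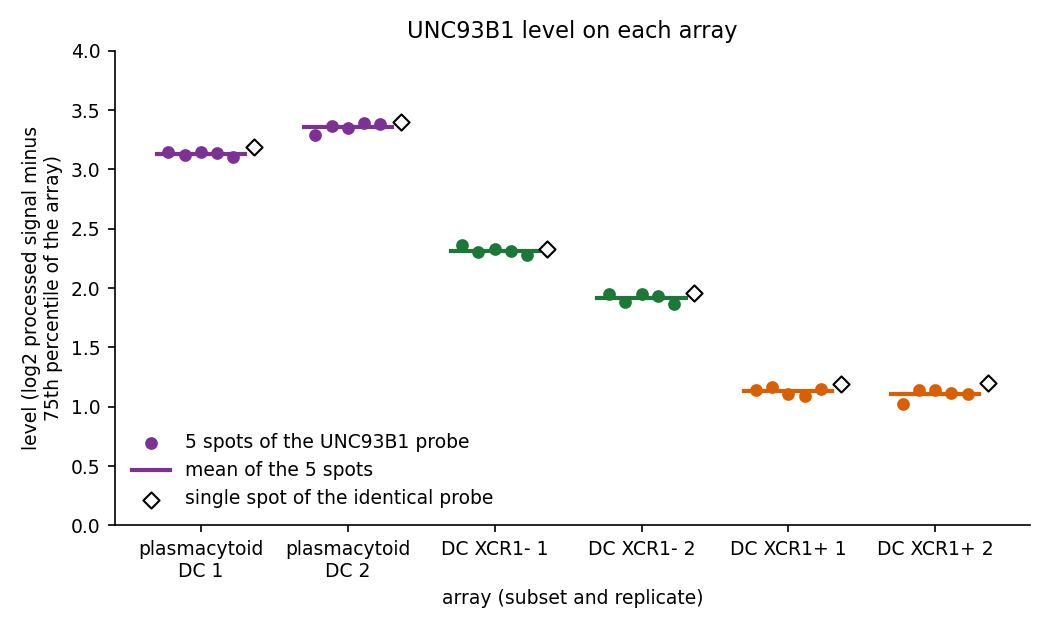
UNC93B1 level on each of the 6 arrays (log2 processed signal minus the 75th percentile of the array), with the 5 spots as points, their mean as a line, and the single spot of the identical probe as an open diamond. The 2 arrays of plasmacytoid DC sit at 3.13 and 3.35, those of DC XCR1- at 2.32 and 1.92, and those of DC XCR1+ at 1.13 and 1.10.

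The spots within an array lay far closer together than the arrays of different subsets. The SD of the 5 spots was 0.02 to 0.05 on the 6 arrays, with a median of 0.0376, against a median of 0.0683 over 83 combinations of other repeated probes and arrays that were well above background. On the array with the widest spread, the second of DC XCR1+, the spots ran from 1.02 to 1.14. On the lowest array of plasmacytoid DC, they ran from 3.1 to 3.15. A given spot departed from the mean of its array by -0.08 to 0.05. All 30 spots were well above the local background by the scanner software's own call, and 0 were saturated or flagged as outliers.

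The readings before scaling followed the same order. The mean processed signal of the 5 spots was 2350 and 2330 intensity units in plasmacytoid DC, 1640 and 884 in DC XCR1-, and 692 and 575 in DC XCR1+. The raw signal exceeded the local background 110-fold and 94.1-fold in plasmacytoid DC, 78.5-fold and 43.9-fold in DC XCR1-, and 31.7-fold and 23.3-fold in DC XCR1+. Even the dimmest array thus measured the probe clear of its background. The 2 arrays of DC XCR1- were the farthest apart of any subset, differing by 0.40 in level, against 0.222 between the arrays of plasmacytoid DC and 0.0262 between those of DC XCR1+.

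The probe of identical sequence gave the same order on its own spot. In plasmacytoid DC, its level was 3.19 and 3.40. In DC XCR1-, it was 2.33 and 1.96. In DC XCR1+, it was 1.19 and 1.20. The copy read 0.01 to 0.09 higher than the UNC93B1 probe on each array, a mean distance of 0.05. Of the 165 pairs of tested probes with an identical sequence, 69.7% lay farther apart than this, and the median distance was 0.08. The copy put plasmacytoid DC 2.10 above DC XCR1+ and 1.15 above DC XCR1-, and put DC XCR1- 0.95 above DC XCR1+. Because both probes were hybridized with the same labelled RNA, this agreement bears on the array measurement and not on the spread between cell preparations.

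The difference was greatest between plasmacytoid DC and DC XCR1+, at 2.13 on the log2 scale (SE 0.25 from the limma fit over all 6 arrays) or 4.37-fold. The lowest array of plasmacytoid DC stood 2.00 above the highest array of DC XCR1+, which is 4.01-fold. Between the subsets, the 4 possible pairs of arrays gave differences of 2.00 to 2.25, and each of the 5 spots taken alone gave 2.09 to 2.16. The difference was 9.59 times the wider of the gaps between replicate arrays. Of 26372 probes tested, 33.8% had both plasmacytoid DC arrays above both DC XCR1+ arrays, and 1370 (5.19%) exceeded the UNC93B1 difference in its direction.

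Plasmacytoid DC also stood above DC XCR1-, by 1.13 (SE 0.25) or 2.18-fold. The lowest plasmacytoid DC array exceeded the highest DC XCR1- array by 0.82, which is 1.76-fold. The 4 pairs of arrays gave 0.82 to 1.44, and the single spots gave 1.06 to 1.17. The difference was 2.82 times the wider gap between replicate arrays, so that it was less well separated from that spread than the first. No overlap in this direction was found for 35.8% of the tested probes, and 3996 (15.2%) had a greater difference in it.

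DC XCR1- stood above DC XCR1+ by 1.00 (SE 0.25) or 2.00-fold. The lowest DC XCR1- array, its second, was 0.79 above the highest DC XCR1+ array, which is 1.72-fold. The 4 pairs of arrays gave 0.79 to 1.21, and the single spots gave 0.94 to 1.08. The difference was 2.50 times the gap between the replicate arrays of DC XCR1-. Both arrays of DC XCR1- were above both arrays of DC XCR1+ for 31.5% of the tested probes, and 3001 probes (11.4%) had a greater difference in this direction.

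**Figure D2:**
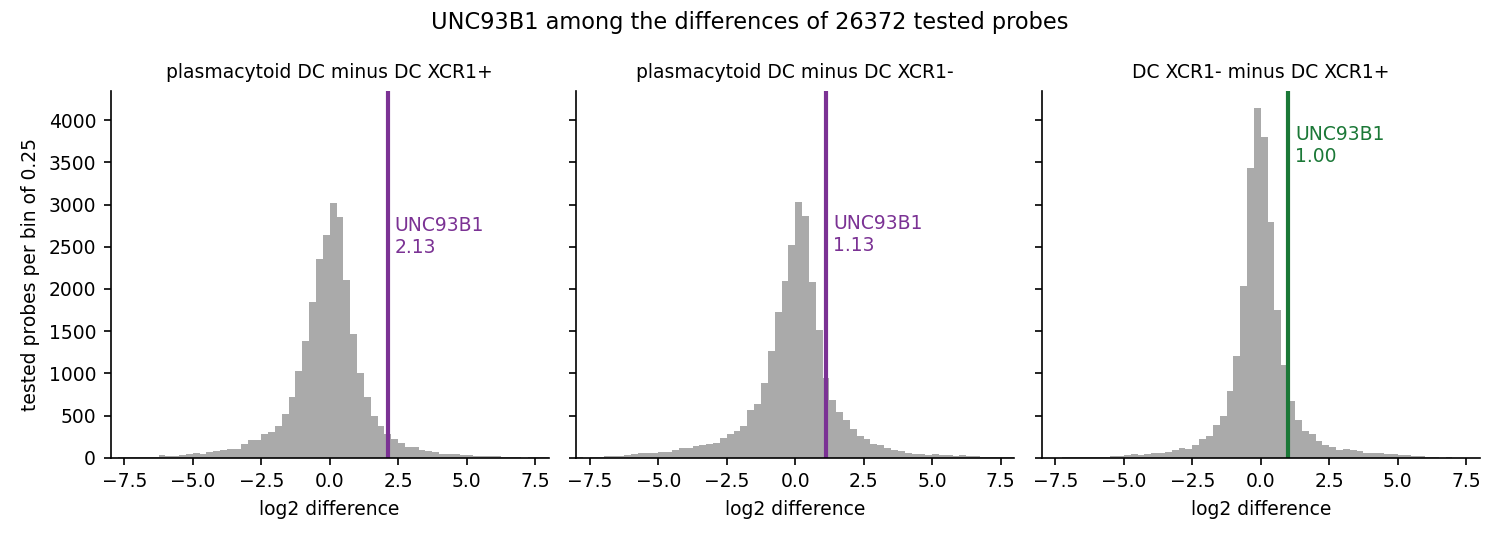
Number of tested probes (26372) per bin of 0.25 of the log2 difference between subset means, for each pair of subsets, with UNC93B1 as a vertical line. UNC93B1 lay at 2.13, 1.13, and 1.00, where 5.19%, 15.2%, and 11.4% of the probes lay farther out in the same direction.

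The median absolute difference over all tested probes was 0.63 for plasmacytoid DC against DC XCR1+, 0.67 for plasmacytoid DC against DC XCR1-, and 0.45 for DC XCR1- against DC XCR1+, so the UNC93B1 differences were above the middle of each distribution without being at its edge. The full order of UNC93B1, with the arrays of plasmacytoid DC above those of DC XCR1- and these above those of DC XCR1+, was shared by 1542 probes, or 5.85% of those tested. A complete order of some kind, with no overlap between any subsets, was found for 9405 probes (35.7%). The range over the subset means of UNC93B1, 2.13, was exceeded by 20.7% of the tested probes, whose median range was 0.97. Its SD between arrays of a subset, 0.187 as the root mean square over subsets, was smaller than that of 77.4% of the tested probes, whose median was 0.30. UNC93B1 thus combined a moderate range with a narrow replicate spread.

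Slides and scan days were not balanced between subsets, and some arrays could be compared within them. On the slide that held the first plasmacytoid DC array and the first DC XCR1- array, UNC93B1 was 0.82 higher in plasmacytoid DC. On the slide that held the second plasmacytoid DC array and the first DC XCR1+ array, it was 2.22 higher in plasmacytoid DC. No slide held both DC XCR1- and DC XCR1+. On the scan day shared by 4 of the arrays, plasmacytoid DC were 2.11 above DC XCR1+ and 0.93 above DC XCR1-, and the difference DC XCR1+ minus DC XCR1- was -1.19. Since no arrays of different subsets overlapped in UNC93B1 level, these comparisons had to give the same directions, and only their sizes are informative. The second arrays of DC XCR1- and DC XCR1+ each had a slide and a scan day to themselves and enter none of them. The column names of the deposited table carry a further tag, whose meaning is not given in the sources used here, and the second plasmacytoid DC array and the first arrays of DC XCR1- and DC XCR1+ share it. Their UNC93B1 levels were 3.35, 2.32, and 1.13, in the order of the subset means, which the lack of overlap also fixed.

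Among all gene probes, the UNC93B1 probe belonged to the brighter ones on every array. It outshone 91.7% and 91.6% of the 41901 probes in plasmacytoid DC, 87.9% and 85.9% in DC XCR1-, and 81.9% and 82.0% in DC XCR1+. In numbers of probes, 3468 and 3508 were brighter in plasmacytoid DC, 5053 and 5903 in DC XCR1-, and 7567 and 7561 in DC XCR1+. By rank, the replicate arrays lay closer together than by level in plasmacytoid DC, and the subsets kept their order. By the level averaged over the 6 arrays, the probe was above 87.7% of all gene probes and above 80.5% of the tested ones. Brightness depends on the probe as well as on the transcript, so these ranks order probes and not amounts of mRNA.

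**Figure D3:**
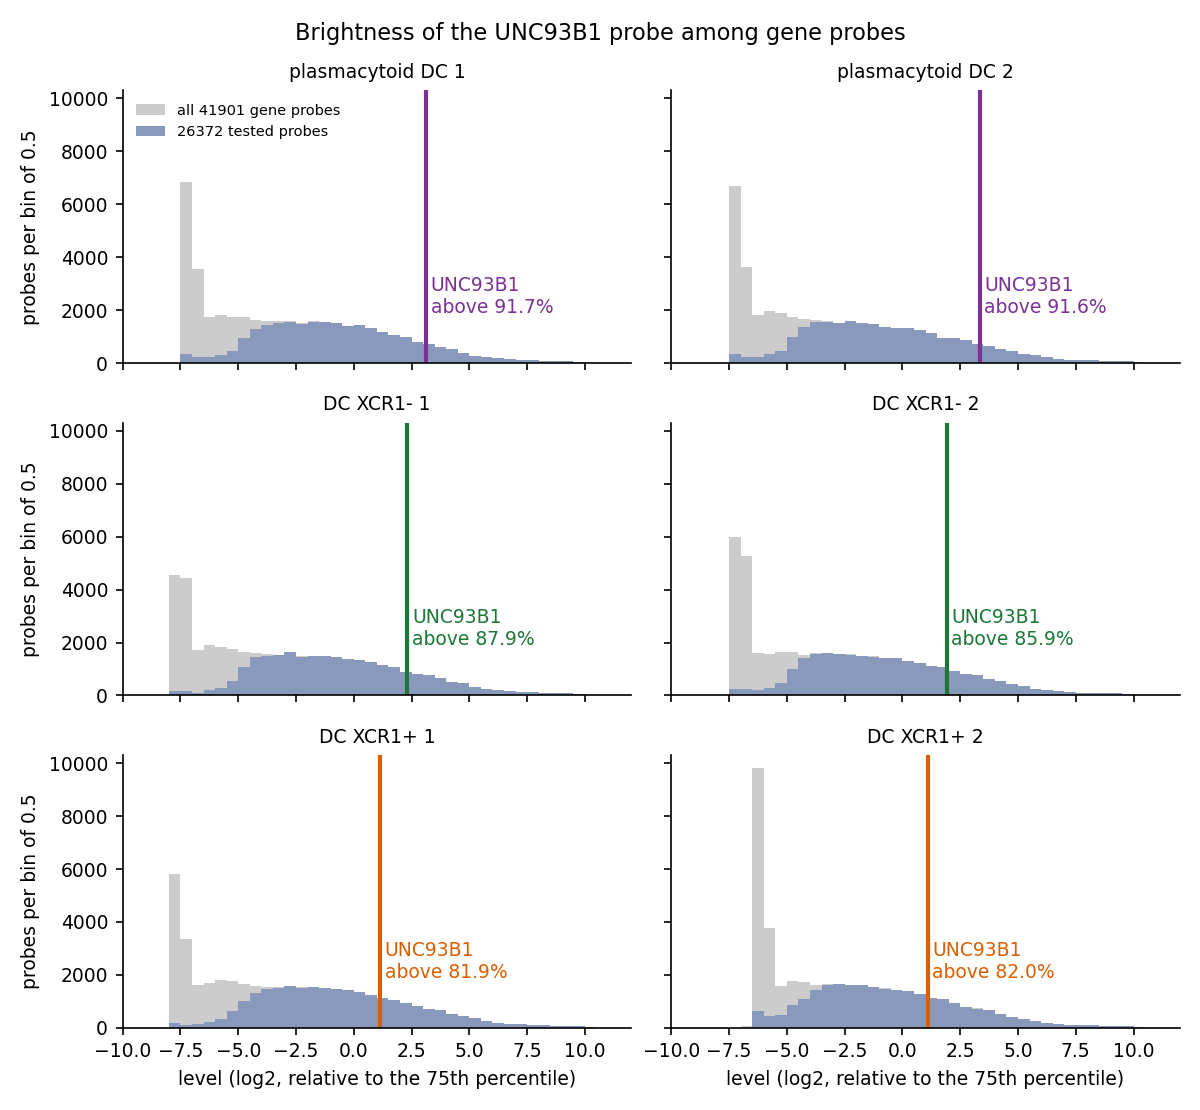
Number of probes per bin of 0.5 of the level on each array, for all 41901 gene probes (grey) and the 26372 tested probes (blue), with UNC93B1 as a vertical line. The share of all probes dimmer than UNC93B1 ran from 91.7% and 91.6% in plasmacytoid DC to 81.9% and 82.0% in DC XCR1+.

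The normalized log2 table that the authors deposited gave the same order on its own scale. There, UNC93B1 was at 11.35 and 11.34 in plasmacytoid DC, 10.41 and 9.99 in DC XCR1-, and 9.31 and 9.27 in DC XCR1+. The plasmacytoid DC arrays, which differed by 0.222 after scaling to the 75th percentile, differed by 0.0102 in the deposited values. The differences were 2.05 for plasmacytoid DC over DC XCR1+, 1.14 for plasmacytoid DC over DC XCR1-, and -0.91 for DC XCR1+ minus DC XCR1-. In share of probes outshone, no array moved by more than a fraction of a percentage point, with 91.7% and 91.6%, 87.8% and 85.7%, and 81.9% and 81.8% in the same sequence of arrays.

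**Figure D4:**
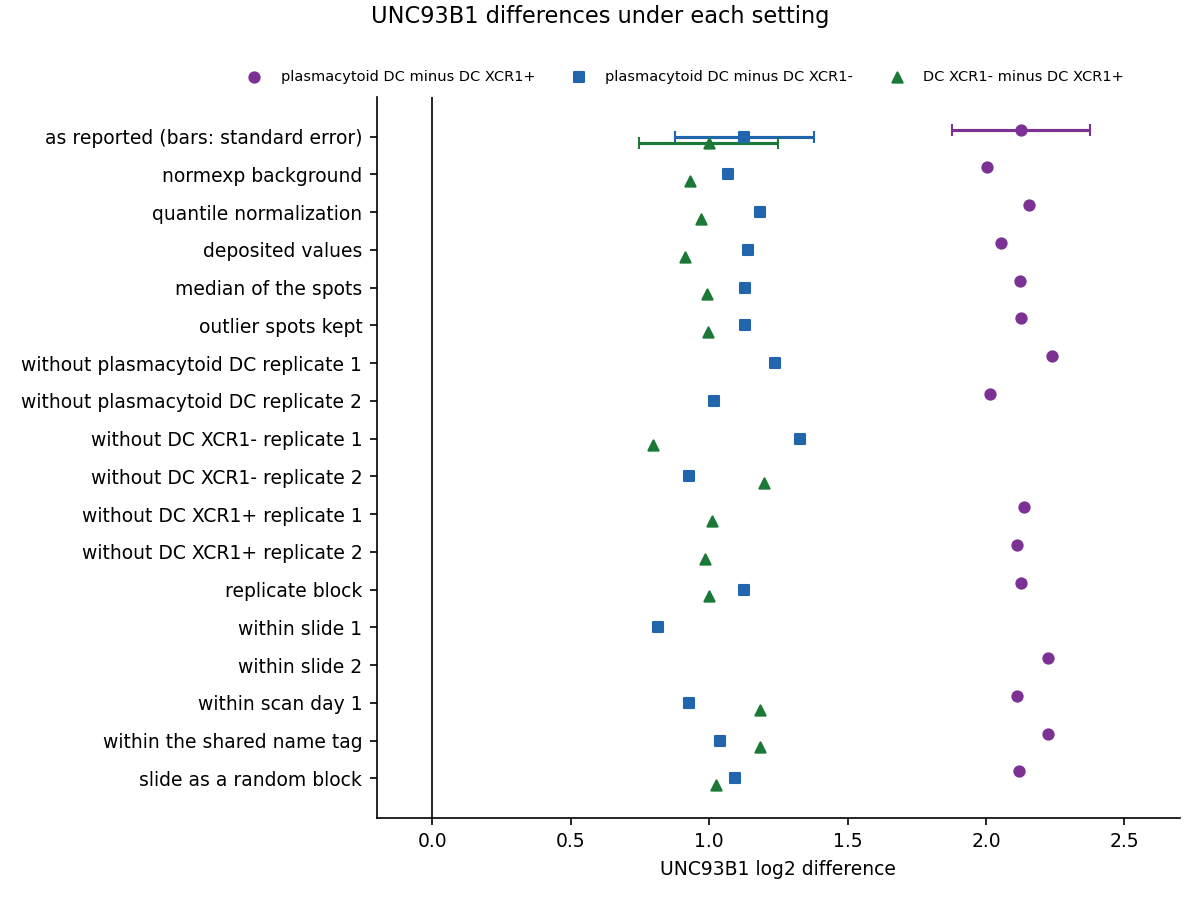
UNC93B1 log2 difference (horizontal axis) for each pair of subsets under each setting (rows), with the standard error shown for the reported value. The points of plasmacytoid DC minus DC XCR1+ stay between 2.00 and 2.24, those of plasmacytoid DC minus DC XCR1- between 0.82 and 1.33, and those of DC XCR1- minus DC XCR1+ on the same side of 0.

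Of a list of 35 genes that act with UNC93B1, namely the receptors it carries, folding and trafficking partners, proteases, adaptors, and cytokine outputs, 4 carry a symbol in these files, and 2 of these were bright enough to be tested. The receptors TLR3, TLR7, TLR8, and TLR9, the chaperones HSP90B1 and CNPY3, the adaptor MYD88, and the transcription factors IRF5 and IRF7 bear no symbol there, and their values were not analysed here. The 4 genes were CD14, a co-receptor that also serves endosomal receptors, and the cytokine genes TNF, IL12A, and IL12B, which TLR signalling induces. The IL12A and IL12B probes, for the subunits of interleukin 12, were not well above background on any of the 6 arrays.

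The list was drawn up with earlier results of these data known, so the p-values given for TNF and CD14 are no independent support. TNF was highest in plasmacytoid DC, as UNC93B1 was. Its level was 5.97 and 8.09 in plasmacytoid DC, 1.10 and 1.41 in DC XCR1-, and -0.89 and 0.06 in DC XCR1+, with no overlap between subsets. It was higher in plasmacytoid DC than in DC XCR1+ by 7.45 (SE 0.70, limma adjusted p = 0.0011) and than in DC XCR1- by 5.77 (SE 0.70, limma adjusted p = 0.0019). As single arrays were left out, the former difference ran from 6.39 to 8.50 and the latter from 4.72 to 6.83. Between DC XCR1+ and DC XCR1-, the TNF difference of -1.67 (SE 0.70) did not pass the test (limma adjusted p = 0.18). It did when only the arrays of these 2 subsets were fitted (limma adjusted p = 0.0411). Leaving out an array of plasmacytoid DC amounts to the same fit for this comparison, since a lone array adds no spread.

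CD14 had another order. Its level was 1.90 and 3.26 in DC XCR1-, -0.73 and -2.66 in plasmacytoid DC, and -2.47 and -2.03 in DC XCR1+, so that the latter subsets overlapped. CD14 was lower in plasmacytoid DC than in DC XCR1- (difference -4.28, SE 0.72, limma adjusted p = 0.0062). As single arrays were left out, this difference ran from -5.24 to -3.32. CD14 was also lower in DC XCR1+ than in DC XCR1- (difference -4.83, SE 0.72, limma adjusted p = 0.0075). The latter call was lost without the second DC XCR1- array (difference -4.16, limma adjusted p = 0.0586, with the spread of the lone array taken from the other subsets), and plasmacytoid DC and DC XCR1+ differed by 0.56 (SE 0.72, limma adjusted p = 0.59). Among the 2 tested genes of the list, 1 was thus higher in plasmacytoid DC than in DC XCR1+ and 0 were lower, against 13.6% and 15.2% of all tested probes. For plasmacytoid DC against DC XCR1-, 1 was higher and 1 lower, against 15.7% and 16.9%. For DC XCR1+ against DC XCR1-, 0 were higher and 1 was lower, against 7.79% and 8.29%. With 2 genes tested, these counts cannot be read against the shares of all probes.

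The labels of the subsets were compared with their markers. TCF4, the transcription factor that maintains plasmacytoid DC, averaged 7.09 ± 0.173 in these cells, 4.18 ± 0.0627 in DC XCR1-, and 4.26 ± 0.283 in DC XCR1+ (SD, n = 2 each). It was 1 of the 6 plasmacytoid DC markers that carries a symbol. Of the 7 markers of the XCR1+ subset, 6 do. XCR1 itself was at 0.47 and 0.54 in DC XCR1+ and was not well above background on either array of DC XCR1-. CADM1, the adhesion molecule used in the sort, averaged 0.92 ± 0.0137 in DC XCR1+ and -2.66 ± 0.348 in DC XCR1-. The transcription factors BATF3 and ID2 were likewise highest in DC XCR1+, at means of 7.79 and 6.15. The probe for CLEC9A, a receptor for dead cells that defines this subset in other mammals, was not well above background on either DC XCR1+ array. Neither DC XCR1- array had it well above background, and 1 array of plasmacytoid DC did (levels of -4.58 and -5.78). FLT3, a cytokine receptor of DC, was at 0.82 in DC XCR1+ and 0.75 in plasmacytoid DC, against -1.63 in DC XCR1-. SIRPA, which encodes CD172, averaged 0.27 ± 0.185 in DC XCR1-, -2.78 ± 0.608 in plasmacytoid DC, and was not well above background in DC XCR1+.

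Of the 5 markers listed for conventional DC of the CD172+ type (cDC2), 2 carry a symbol, SIRPA and CSF1R, and both had their highest mean in DC XCR1-. Of the 4 monocyte or macrophage markers, 2 carry a symbol, CD14 and again CSF1R, which is on both lists, and these were high in DC XCR1- too. CSF1R, the receptor for macrophage colony-stimulating factor, averaged 3.58 ± 0.14 there, -3.71 ± 1.08 in plasmacytoid DC, and -3.28 ± 0.0545 in DC XCR1+. Summed on the linear scale, in units of the 75th percentile signal, CD14 and CSF1R reached 16.5 to 20.8 in DC XCR1-, 0.203 to 0.732 in plasmacytoid DC, and 0.281 to 0.35 in DC XCR1+. Of the cDC2 list, SIRPA encodes the CD172 on which the cells were sorted, and CSF1R is on both lists, so neither sets cDC2 apart from monocytes here. CD14 was also high and FLT3 low in DC XCR1-, and these cells are called here by their label. The monocyte markers were higher in the sorted CD14- cells labelled DC XCR1- than in DC XCR1+, as UNC93B1 was, and their part in that UNC93B1 difference was not tested. In plasmacytoid DC, their summed level was below 1 on both arrays, with CD14 at -0.73 on the first and -2.66 on the second. Their part in the UNC93B1 level there was not tested either. None of the 5 B cell markers and none of the 5 T or NK cell markers listed carries a symbol, and no values are given for them.

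Among the other named genes that passed the filter, each by its brightest probe, the pattern over the 6 arrays was most like that of UNC93B1 for TNF (Pearson r = 0.94) and TCF4 (r = 0.86). The third, NOBOX, an oocyte transcription factor gene that the array carries as a negative control, followed at r = 0.57, and its level moved only between -4.34 and -3.82. TCF4 placed DC XCR1- and DC XCR1+ at nearly the same level, whereas UNC93B1 and TNF had higher means in DC XCR1-. The TNF difference between these subsets did not pass the test (limma adjusted p = 0.18). For each unit of log2 in UNC93B1, TNF changed by 3.49 and TCF4 by 1.32. Among the 5 tested markers of the XCR1+ subset, 3 had the opposite order of subset means and 2 did not. Over all tested probes, 1901 (7.21%) had this opposite order with no overlap between arrays. The count among these markers, which were listed for the XCR1+ subset, was not tested against that share. CADM1, BATF3, and ID2 each had r = -0.96, with means of -5.49, -2.66, and 0.92 for CADM1, -0.35, 3.96, and 7.79 for BATF3, and 1.82, 3.34, and 6.15 for ID2 in plasmacytoid DC, DC XCR1-, and DC XCR1+. The CADM1 mean in plasmacytoid DC rests on levels of -4.14 and -6.85, of which 1 was well above background. XCR1 (r = -0.75) was highest in DC XCR1+ and was well above background on 1 of the 4 arrays of the other subsets, and FLT3 (r = 0.02) was lowest in DC XCR1-, with means of 0.75, -1.63, and 0.82. These correlations describe 6 arrays in 3 subsets of 2, so that they mostly restate the order of the subsets, and they carry no p-value.

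**Figure D5:**
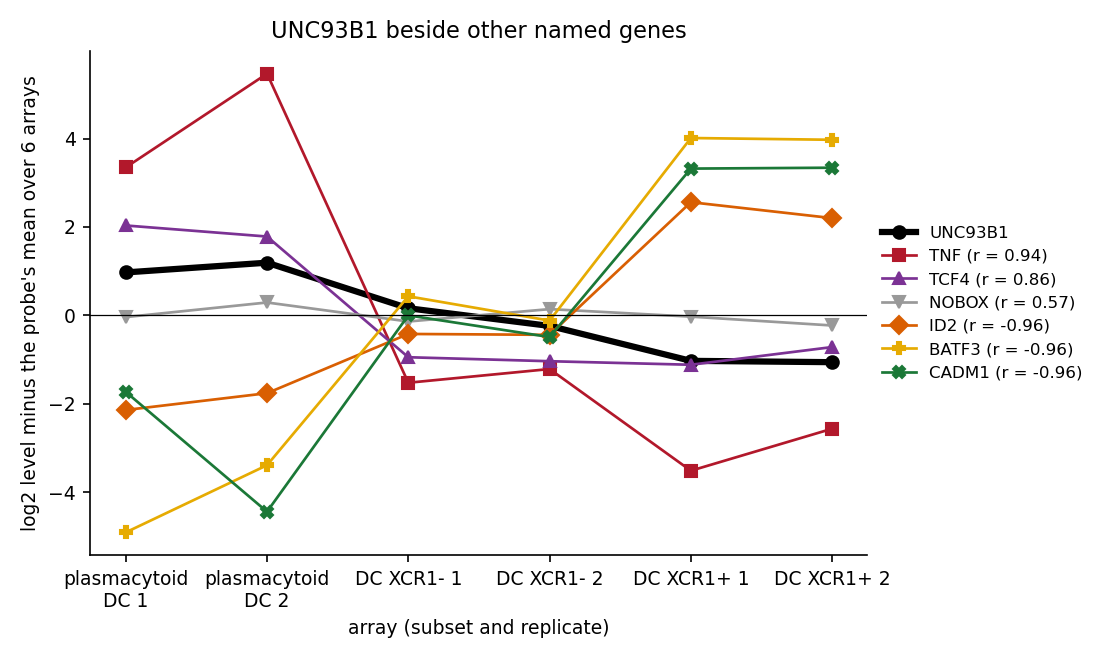
Level of UNC93B1 (thick line) and of 6 other named genes on the 6 arrays, each as log2 level minus the mean of that probe over the arrays, with Pearson r in the legend. TNF and TCF4 are highest on the 2 plasmacytoid DC arrays as UNC93B1 is, while CADM1, BATF3, and ID2 are highest on the 2 DC XCR1+ arrays.

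Over all tested probes other than UNC93B1, 1231 (4.67%) had r above 0.9 with it and 28 (0.106%) had r above 0.99, while 1264 (4.79%) had r below -0.9. The highest of the unnamed probes was the copy SS_S1A_ENSG110057 (r = 0.9997), which shares the sequence. The next, A_72_P549186 (r = 0.9983), averaged 4.32, 2.68, and 1.01 in plasmacytoid DC, DC XCR1-, and DC XCR1+. The lowest was A_72_P216282 (r = -0.9986), with means of 1.51, 1.88, and 2.23 in the same order, followed by A_72_P349758 (r = -0.9977), with -3.99, -2.81, and -1.86. The files pair none of these probes with a gene symbol.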

How the data were processed

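RNA of 3 populations sorted from pig blood as DC candidates was amplified, labelled with Cy3, and hybridized to 6 custom Agilent arrays, 2 per subset. The authors deposited spot intensity tables from Agilent Feature Extraction 10.7.3.1, which hold raw and background-corrected signals with flags, and 1 table of normalized log2 values. The submitters' processing notes name limma, and the step it served is not given in the sources used here. Of the deposited log2 columns, 6 were used as an alternative and 5 were not used. No genome build is given in the sources used here.

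From the processed signal, log2 minus the 75th percentile of each array was taken after leaving out control spots (1417) and gene spots that any array flagged as outliers (19), and spots of a probe were averaged. A probe was tested if 1 or more subsets had it well above background on both of their arrays, which kept 26372 of 41901 probes and dropped 15529. Linear models with 1 coefficient per subset were fitted over all 6 arrays with limma 3.58.1 (R 4.3.3), with 3 residual degrees of freedom and Benjamini-Hochberg adjustment at 0.05, and the fit was tested on simulated data. The number of arrays limits the precision. Between 54.3% and 64.1% of gene spots were well above background per array, and 0 were saturated. Over probes, the deposited values correlated with those computed here at 0.984 to 0.989 (Pearson r). The arrays lay on 4 slides and were scanned on 3 days. Tables and plots were made with Python 3.11.15.

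UNC93B1, the pathway list, and the marker lists were chosen with earlier results of these data known. Genes are named by rule, namely UNC93B1, the pathway and marker genes with a symbol (by the brightest probe), the 3 other named genes of highest Pearson r with UNC93B1, and 2 unnamed probes at each end of r. A_72_P062186 was named for its sequence. Alternatives were the background correction, the scaling, the deposited values, the median of spots, flagged spots kept, the filter, the variance prior, the slide, the arrays fitted, the replicate block, and each array left out.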

Additional observations from a re-analysis of the deposited data

How the results depend on the processing

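With 2 arrays per subset, the UNC93B1 differences kept their direction under every alternative run. Since no arrays of different subsets overlapped, leaving arrays out or comparing within a slide, scan day, or name tag could not turn a direction. Plasmacytoid DC minus DC XCR1+ (2.13) ran from 2.02 to 2.24 as single arrays were left out and was 2.00 with normexp background correction, a shift of 0.124 against a replicate SD of 0.112 over these subsets (root mean square). Plasmacytoid DC minus DC XCR1- (1.13) ran from 0.93 to 1.33 as arrays were left out and was 0.82 within the first slide. DC XCR1+ minus DC XCR1- (-0.998) ran from -1.20 to -0.80. Comparisons within a slide, scan day, or name tag and with slide as a random block were added after seeing the data, and slide as a random block gave 2.12, 1.09, and -1.02. Same-numbered replicates of different subsets deviated together only weakly (correlations of 0.043, 0.089, and 0.27, the last for DC XCR1- with DC XCR1+). The name tag followed the numbers only in part. The first arrays of DC XCR1- and DC XCR1+ share it, but with the second array of plasmacytoid DC. The numbers were therefore not taken as pairs. A fit with the replicate block could not move the differences, since each number occurs equally often in every subset, and it left the pathway calls at 4. The probe was brighter than 87.7% of all gene probes on average and 80.5% of those that passed the filter, a set without the dimmest probes. The 4 calls among the pathway genes were 3 to 5 as arrays were left out and 4 or 5 otherwise. The CD14 difference of plasmacytoid DC minus DC XCR1+, which passed the test in no setting, ran from -0.40, its sign turned, without the first plasmacytoid DC array (limma adjusted p = 0.654) to 1.52 without the second, with adjusted p of 0.126 to 0.826 over the alternatives, and the cause was not tested.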
